A study of Bos taurus with 6 samples.

Results

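The genes described here are anti-Müllerian hormone (AMH), its receptor AMHR2, and the transcription factors SOX9, SOX8, WT1, GATA4, GATA1 and NR5A1, which direct the formation and the work of the gonad. They were chosen by gene name from the deposited table of genes, and 8 of its 47249 entries belong to the set. The samples were testes of untreated Wandong cattle, taken from 3 immature calves aged 3 ± 0.24 months and 3 andrologically mature bulls aged 3 ± 0.014 years, with 1 library of ribosomal RNA-depleted total RNA per animal. Levels are in FPKM, the fragments of a gene divided by its length and by the size of the library, as the authors deposited them. All levels below are FPKM unless a log2 scale is named. FPKM is scaled to length, so levels of different genes can be set side by side. No counts per gene came with the tables, so the number of reads behind a value is unknown, and the spread between animals was the only error available.

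Sertoli cells are the somatic nurse cells of the seminiferous tubule. In the fetal gonad, SOX9 starts their differentiation together with NR5A1 (also called SF-1), GATA4 and WT1, and these factors act on AMH, the hormone that makes the Müllerian ducts of a male regress. AMH binds its own type II receptor, AMHR2, which signals through type I receptors and SMAD proteins shared with bone morphogenetic proteins. In mammals, Sertoli cells make much AMH before puberty and little in the adult testis.

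In the library of calf 3, the Leydig cell genes and several defining Sertoli cell genes were at or near 0. FSHR, the receptor for follicle-stimulating hormone on Sertoli cells, reached 37.8 and 34.3 FPKM in calves 1 and 2, was listed at 0 in calf 3, and lay between 7.24 and 8.74 in bulls. The sum over 6 genes of Leydig cells was 1390 and 1087 in calf 1 and calf 2, 0.502 in calf 3, and 1468 to 2611 in bulls. The sum over 6 genes of oligodendrocytes, the myelin-forming cells of the brain, was 13017 in calf 3 and 19.7 to 29.4 in the other 5 libraries. Not all Sertoli cell genes were low in calf 3: of 13, 6 were lowest and 4 highest there, with CLU at 423, CLDN11 at 429 and TF at 426, and their sum was 1357 in calf 3, 2212 and 2353 in calf 1 and calf 2, and 586 to 662 in bulls. Every one of the 6 oligodendrocyte genes was highest in calf 3, as were all 6 astrocyte genes and 5 of 6 neuron genes. The part of these cells in the levels of CLU, CLDN11 and TF in calf 3, and so in its Sertoli cell sum, was not tested. The 6 genes tested are therefore given with calf 3 and without it.

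Levels were compared on the log2(FPKM + 1) scale with limma, a linear model fitted across all genes with moderated variances. A gene was called at an adjusted p (Benjamini-Hochberg, over 18115 genes tested) below 0.05 and a change of at least 2-fold. AMH, AMHR2, SOX9, WT1, GATA4 and NR5A1 passed the filter on low values, 3 or more libraries with 1 FPKM or more, whereas SOX8 and GATA1 did not. With all 6 libraries, 0 of these 6 genes were called by limma, and 1 of them (SOX9) had an unadjusted p below 0.05. Among all genes tested, 9.61% were called lower in bulls and 35.7% higher. Without calf 3, 6 of 6 were called lower in bulls and 0 higher, against 13.6% of all genes called lower and 37.9% called higher. Their levels did not overlap between calf 1 with calf 2 and the bulls, which held in this direction for 30.9% of all genes tested. Over all genes tested, the log2 fold change had a median of 0.43 in both fits, and without calf 3 each of the 6 genes lay below it. In a bulk sample, fewer Sertoli cells and less RNA per Sertoli cell cannot be told apart. Germ cells differed greatly between the same libraries: the sum over 5 genes of spermatids was 2.45 and 2.57 in calf 1 and calf 2 and 12925 to 14641 in bulls, and the part of this in the results was not tested.

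**Figure D1:**
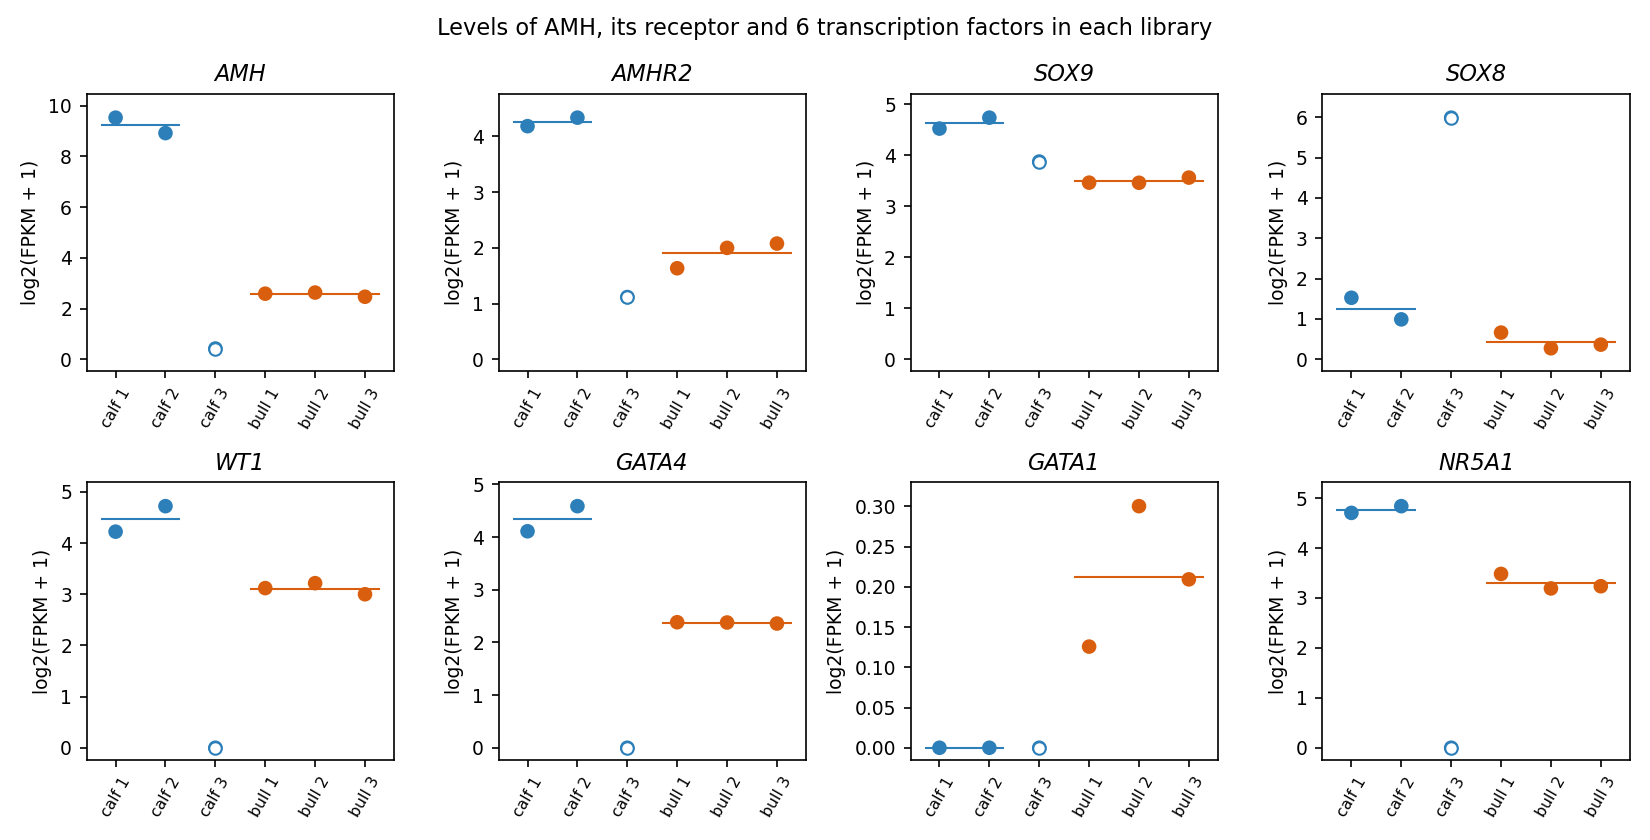
Level of each gene in each library, as log2(FPKM + 1), with blue points for calves, an open blue point for calf 3 and orange points for bulls. Lines are the means of calf 1 with calf 2 and of the 3 bulls. AMH, AMHR2, SOX9, WT1, GATA4 and NR5A1 lay lower in every bull than in calf 1 and calf 2, whereas SOX8 stood out in calf 3 (FPKM 62.5).

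AMH (ENSBTAG00000014955, chromosome 7, 21401483 to 21404348) was the most abundant gene of the set in calf 1 and calf 2. Its FPKM reached 736 in calf 1, 483 in calf 2 and 0.340 in calf 3, against 5.001 in bull 1, 5.19 in bull 2 and 4.52 in bull 3. Calf 1 and calf 2 lay far above every bull, and calf 3 lay below every bull. The mean of calf 1 and calf 2 (610 ± 179, SD, n = 2) was 124 times the mean of bulls (4.90 ± 0.347, SD, n = 3), and single pairs of a calf and a bull gave ratios from 93.0 to 163. On the log2 scale AMH changed by −6.66 without calf 3 (standard error 0.19, adjusted p = 1.45e-06, limma). Of all genes tested, only a histone H2B gene (ENSBTAG00000052713, −7.98) fell further in this fit. With calf 3 included, the change was −3.73 (standard error 2.41, adjusted p = 0.235) and AMH was not called. Leaving out calf 1 or calf 2 instead gave −2.11 and −2.41. In calf 1, AMH exceeded 99.7% of the genes above 0, and in calf 2 it exceeded 99.6%. In bulls it exceeded 71.0% to 73.3%.

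AMHR2 (ENSBTAG00000018524, chromosome 5, 26591483 to 26597710), which encodes the only type II receptor specific to AMH, is made by Sertoli and Leydig cells. It reached 17.2 in calf 1, 19.2 in calf 2 and 1.17 in calf 3, against 2.10 in bull 1, 3.00 in bull 2 and 3.22 in bull 3. As for AMH, calf 1 and calf 2 lay above every bull and calf 3 lay below every bull. The mean of calf 1 and calf 2 (18.2 ± 1.44, SD, n = 2) was 6.56 times that of bulls (2.77 ± 0.591, SD, n = 3). Without calf 3, it changed by −2.36 on the log2 scale (standard error 0.18, adjusted p = 6.61e-05, limma), the largest change of the set after AMH. With all libraries it was −1.31 (adjusted p = 0.250), and leaving out calf 1 or calf 2 instead gave −0.82 and −0.75.

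SOX9 (ENSBTAG00000045824, chromosome 19, 58919579 to 58923174) encodes the HMG box factor that sets the Sertoli cell fate. It reached 21.9 in calf 1, 25.6 in calf 2 and 13.7 in calf 3, against 10.0 in bull 1, 9.99 in bull 2 and 10.8 in bull 3. It was the only one of the 6 genes tested for which all 3 calves lay above all 3 bulls, an arrangement found in this direction in 21.3% of all genes tested. The log2 fold change was −0.88 with all libraries (standard error 0.25, adjusted p = 0.0247, limma), short of the 2-fold needed for a call, and −1.13 without calf 3 (standard error 0.12, adjusted p = 0.000251). With calf 3 kept and any other library left out, the adjusted p was between 0.0660 and 0.0821. SOX9 is also a gene of astrocytes. The sum over 6 astrocyte genes was 2840 in calf 3 and 61.9 to 151 in the other 5 libraries, with GFAP at 1193 in calf 3, and the part of these cells in the level of SOX9 in calf 3 was not tested.

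SOX8 (ENSBTAG00000020737, chromosome 25, 785448 to 793540), a close relative of SOX9 that backs it up in Sertoli cells, was weakly expressed outside calf 3. It reached 1.88 in calf 1, 0.985 in calf 2 and 62.5 in calf 3, against 0.582 in bull 1, 0.208 in bull 2 and 0.286 in bull 3. Calf 3 stood 43.7 times above the mean of calf 1 and calf 2. The ratio of SOX8 to SOX9 was 4.58 in calf 3, against 0.0208 to 0.0855 elsewhere, so SOX8 exceeded SOX9 in 1 library only. SOX8 is also a gene of oligodendrocytes, and MBP, which encodes myelin basic protein, was at 3861 in calf 3 and at 1.46 to 3.24 elsewhere. SOX10, the third member of the same SOX group (named after its values were seen), was at 54.2 in calf 3 and at 0.172 to 1.49 elsewhere. Of the genes without the filter, SOX8 had a log2 fold change of −2.40 with all libraries (adjusted p = 0.216) and −0.82 without calf 3 (adjusted p = 0.0454, limma), and was called in neither fit.

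WT1 (ENSBTAG00000047268, chromosome 15, 63118358 to 63168835) encodes a zinc finger factor needed to maintain Sertoli cells. Its FPKM was 17.7 in calf 1 and 25.4 in calf 2, it was listed at 0 in calf 3, and it was 7.70 in bull 1, 8.30 in bull 2 and 7.002 in bull 3. The mean of calf 1 and calf 2 was 2.81 times that of bulls, with single pairs from 2.13 to 3.63. The log2 fold change was 0.13 with all libraries (adjusted p = 0.937) and −1.36 without calf 3 (standard error 0.18, adjusted p = 0.000640, limma), so calf 3 turned the direction. WT1 also marks the mesothelium that covers the testis. Of 5 mesothelial genes, 2 passed the filter, UPK3B through the bulls only. UPK3B was called higher in bulls (2.58 with all libraries, adjusted p = 0.00154, and 2.40 without calf 3, adjusted p = 0.00128, limma), and MSLN was not called (−0.48, adjusted p = 0.612, and 0.32, adjusted p = 0.480). KRT19, one of the 3 not tested (named after its values were seen), was at 16.3 and 2.20 in calf 1 and calf 2, listed at 0 in calf 3, and at 0.412 to 0.742 in bulls. The sum over the 5 genes was 19.3 and 8.98 in calf 1 and calf 2, 33.3 in calf 3 and 9.42 to 19.5 in bulls, and its part in the level of WT1 was not tested.

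GATA4 (ENSBTAG00000005425, chromosome 8, 7642403 to 7695092) encodes a zinc finger factor of Sertoli and Leydig cells. Its FPKM was 16.3 in calf 1 and 23.1 in calf 2, it was listed at 0 in calf 3, and the bulls lay very close together at 4.22, 4.201 and 4.13. The mean of calf 1 and calf 2 was 4.70 times that of bulls. Without calf 3 it changed by −1.98 on the log2 scale (standard error 0.17, adjusted p = 0.000111, limma), and with all libraries it was −0.53 (adjusted p = 0.732). GATA6, a relative that shares work with GATA4 in the gonad (named after its values were seen), was at 16.6 and 20.2 in calf 1 and calf 2, 0.0315 in calf 3 and 2.31 to 3.07 in bulls. Its log2 fold change was −2.38 without calf 3 (adjusted p = 4.25e-05, limma) and −0.97 with all libraries (adjusted p = 0.511), so that it was called, like GATA4, without calf 3 only.

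NR5A1 (ENSBTAG00000009017, chromosome 11, 95513842 to 95538735) encodes steroidogenic factor 1, a nuclear receptor of Sertoli, Leydig and adrenal cells. Its FPKM was 25.1 in calf 1 and 27.6 in calf 2, it was listed at 0 in calf 3, and it was 10.2 in bull 1, 8.13 in bull 2 and 8.42 in bull 3. The ratio of the mean of calf 1 and calf 2 to the mean of bulls was 2.96. The log2 fold change was −1.47 without calf 3 (standard error 0.13, adjusted p = 0.000146, limma) and 0.12 with all libraries (adjusted p = 0.945), so calf 3 turned the direction here too. Leydig cells also express NR5A1. Of the 6 Leydig cell genes measured by a single entry, 5 were not called in either fit, and HSD17B3, which makes testosterone, was called higher (3.28 with all libraries, adjusted p = 0.00118, and 2.78 without calf 3). INSL3, a peptide hormone of Leydig cells, was at 1349 and 1041 in calf 1 and calf 2, 0.121 in calf 3, and 1403 to 2262 in bulls, a log2 fold change of 0.66 (adjusted p = 0.0503) without calf 3 and of 4.01 (adjusted p = 0.261) with all libraries.

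GATA1 (ENSBTAG00000003184, chromosome X, 86899824 to 86906499), a factor of red cell precursors that rodent Sertoli cells also make, was barely detected. It was listed at 0 in all 3 calves, and it was at 0.0911 FPKM in bull 1, 0.231 in bull 2 and 0.156 in bull 3. In bull 1 and bull 3 it was the lowest of the set, and in bull 2 SOX8 (0.208) was lower. Without the filter, the log2 fold change was 0.21 (adjusted p = 0.0273 with all libraries and 0.0461 without calf 3, limma), under the change required for a call. Of 9 genes of red cell precursors, the sum was 2.15 and 2.35 in calf 1 and calf 2, 6.41 in calf 3 and 3.86 to 4.91 in bulls, with HBB between 0 and 1.29 and ALAS2 between 0.0328 and 1.03 over all libraries. Of 5 genes of mast cells and platelet precursors, which also use GATA1, 2 passed the filter. ITGA2B (2.73 with all libraries, 2.87 without calf 3) and CPA3 (1.31 and 1.26) were called higher in bulls in both fits. CPA3 passed through the bulls only, with 0 to 0.217 in calves and 1.22 to 2.32 in bulls. The others were not tested and lay at or below 0.258 in every library.

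**Figure D2:**
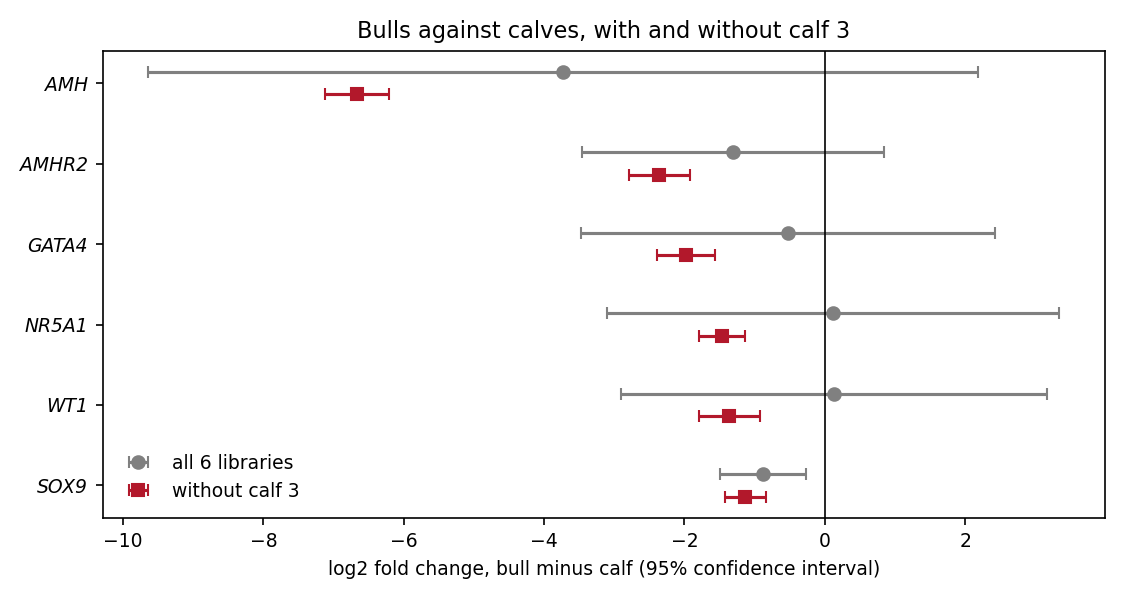
Log2 fold change of bulls against calves for the 6 genes tested, as points with 95% confidence intervals, in grey with all 6 libraries and in red without calf 3. The grey intervals of AMH, AMHR2, GATA4, NR5A1 and WT1 span 0, and the red ones all lie below it, from −6.66 for AMH to −1.13 for SOX9.

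The level of AMH relative to each other gene tested was higher in calf 1 and calf 2 than in every bull. In calf 1 and calf 2 the order was AMH, NR5A1, SOX9, WT1, GATA4, AMHR2, SOX8 and GATA1. The levels of the neighbours from NR5A1 to AMHR2 overlapped between these animals, and AMH lay far above them. In bulls the order was SOX9, NR5A1, WT1, AMH, GATA4, AMHR2, SOX8 and GATA1. There, SOX9 overlapped NR5A1, NR5A1 overlapped WT1 and SOX8 overlapped GATA1, whereas the levels from WT1 down to SOX8 were separate. AMH stood first in calves 1 and 2 and below SOX9, NR5A1 and WT1 in bulls. The ratio of AMH to SOX9 was 33.6 in calf 1 and 18.8 in calf 2, 0.0249 in calf 3, against 0.4998 in bull 1, 0.520 in bull 2 and 0.419 in bull 3. The ratio of AMH to AMHR2 was 42.9 in calf 1, 25.1 in calf 2 and 0.291 in calf 3, against 2.38, 1.73 and 1.404 in bulls. The ratio of NR5A1 to SOX9 was 1.14 and 1.08 in calf 1 and calf 2 and 0.780 to 1.02 in bulls, without overlap, and that of WT1 to SOX9 was 0.807 and 0.992 against 0.649 to 0.831, with overlap. GATA4 to SOX9 was 0.742 and 0.900 in calf 1 and calf 2 and 0.383 to 0.422 in bulls, and these ranges did not overlap.

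**Figure D3:**
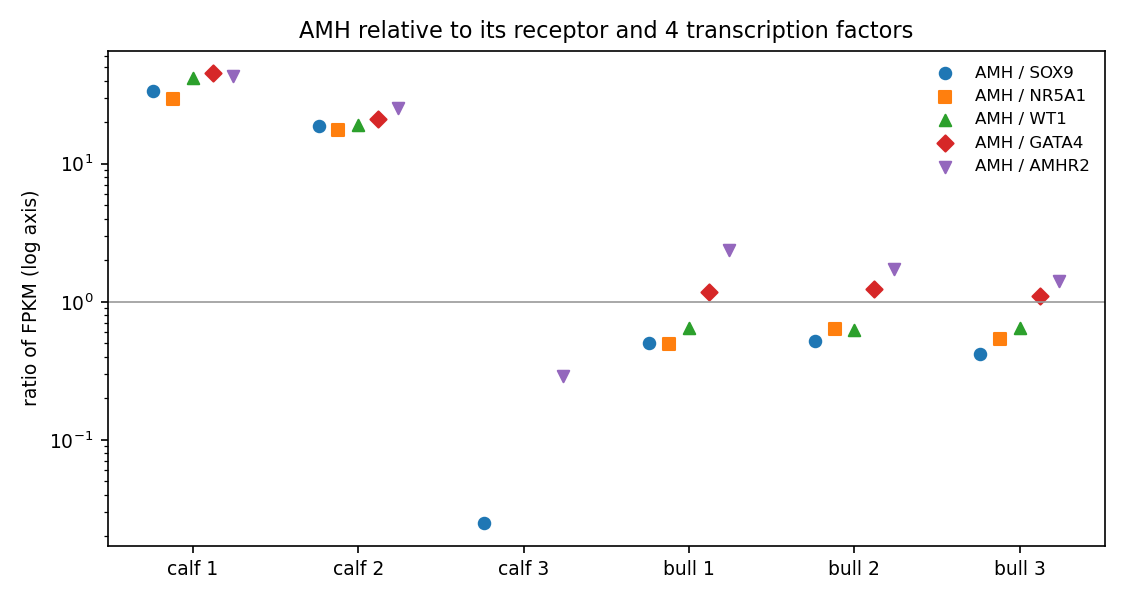
Ratio of the FPKM of AMH to that of SOX9, NR5A1, WT1, GATA4 and AMHR2 in each library, on a log axis, with a line at equal levels. All ratios lay between 17.5 and 45.2 in calf 1 and calf 2 and between 0.419 and 2.38 in bulls, and calf 3 has only the ratios to SOX9 and AMHR2, since the other 3 genes were listed at 0.

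The genes were also set against other Sertoli cell genes. In each library, the log2(FPKM + 1) of a gene was set against the median of 13 Sertoli cell genes outside the set. AMH lay 6.13 and 4.91 above this median in calf 1 and calf 2, and 0.46, 0.48 and 0.82 below it in bulls, a shift of −6.11 between the means. The shift was −1.80 for AMHR2, −1.42 for GATA4, −0.91 for NR5A1, −0.81 for WT1 and −0.58 for SOX9. The median itself was 3.40 and 4.004 in calf 1 and calf 2 and 3.04 to 3.28 in bulls, and since it is taken from every gene alike, the differences among the genes are those already given. The Sertoli cell genes did not move as one: without calf 3, 5 of the 12 tested were called lower and 3 higher, with a median of −0.76. Over all genes tested, 13.6% were called lower and 37.9% higher in this fit. INHA, which encodes the inhibin alpha subunit, fell by 3.27 on the log2 scale without calf 3 (adjusted p = 1.07e-05, limma), and was at −0.26 with all libraries (adjusted p = 0.937). FSHR fell by 2.06 without calf 3 (adjusted p = 2.67e-05), and was at −0.33 with all libraries (adjusted p = 0.860). In both fits, CLU, a secreted chaperone, was called lower (−1.67 with all libraries, −2.14 without calf 3), as was HOPX, a homeodomain cofactor (−2.13 and −1.48). MRO (2.69 and 3.37) and INHBB, which encodes an inhibin beta subunit (1.02 and 1.299), were called higher in both. HOPX was highest in calf 3, at 34.3, against 9.93 and 6.52 in calf 1 and calf 2 and 1.26 to 3.31 in bulls. The part of oligodendrocytes, astrocytes and neurons in the level of HOPX in calf 3 was not tested.

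The table of transcripts held 12 entries for the 8 genes, of which 7 passed the filter. With all libraries, 0 of these 7 were called by limma (1 had an unadjusted p below 0.05), against 9.37% of transcripts called lower. Without calf 3, all 7 were called lower in bulls, against 13.1% of the 23212 transcripts tested. AMH, AMHR2, GATA4, GATA1 and NR5A1 had a single entry each. For WT1, WT1-201 was at 11.6 in calf 1, 19.6 in calf 2 and 5.48 to 6.92 in bulls, and WT1-203 had 6.05 and 5.83 against 1.38 to 1.55. WT1-203 made up 34.2% and 22.9% of the WT1 signal in calf 1 and calf 2, and between 16.6% and 21.7% in bulls. The lowest calf lay just above the highest bull. Without calf 3, WT1-203 changed by −1.48 (adjusted p = 0.000534) and WT1-201 by −1.17 (adjusted p = 0.00780, limma). With all libraries they were at −0.55 (adjusted p = 0.583) and 0.17 (adjusted p = 0.912). For SOX8 in calf 3, 73.5% of the signal lay in SOX8-201 and the rest in an entry assembled from the reads that begins upstream, inside the neighbouring gene LMF1.

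The table places 2 genes over AMH, which were examined after the values of the set were known: SF3A2, a splicing factor gene that ends inside AMH, and JSRP1, whose assembled entry spans the whole of it. SF3A2-202, which shares 200 bases with AMH, was at 9.19 and 8.67 in calf 1 and calf 2, 1.49 in calf 3 and 0.825 to 1.11 in bulls, so it was high in the calves in which AMH was high. SF3A2-201, which ends before AMH, was at 2.68 and 5.32 in calf 1 and calf 2 and 11.7 to 14.2 in bulls, the opposite direction. Without calf 3, the log2 fold changes were −2.30 (adjusted p = 0.000171) for SF3A2-202 and 1.56 (adjusted p = 0.00355, limma) for SF3A2-201. With all libraries they were −1.64 (adjusted p = 0.0528, not called) and 1.44 (adjusted p = 0.00472). The assembled JSRP1 entry over AMH was at 15.4, 10.6 and 1.39 in calf 1, calf 2 and calf 3 and 3.93 to 4.66 in bulls. JSRP1-201, which does not overlap AMH and did not pass the filter, was also higher in calf 1 and calf 2. It was at 11.3 and 2.08 there, listed at 0 in calf 3, and at 0.382 to 0.534 in bulls. The libraries kept strand, but how fragments were counted over overlapping entries is not given in the sources used here. The AMH level exceeded the sum of all entries of SF3A2 and JSRP1 in calf 1 and calf 2, but not in bulls, where SF3A2 alone was at 12.8 to 15.1 and JSRP1 at 5.23 to 5.86.

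**Figure D4:**
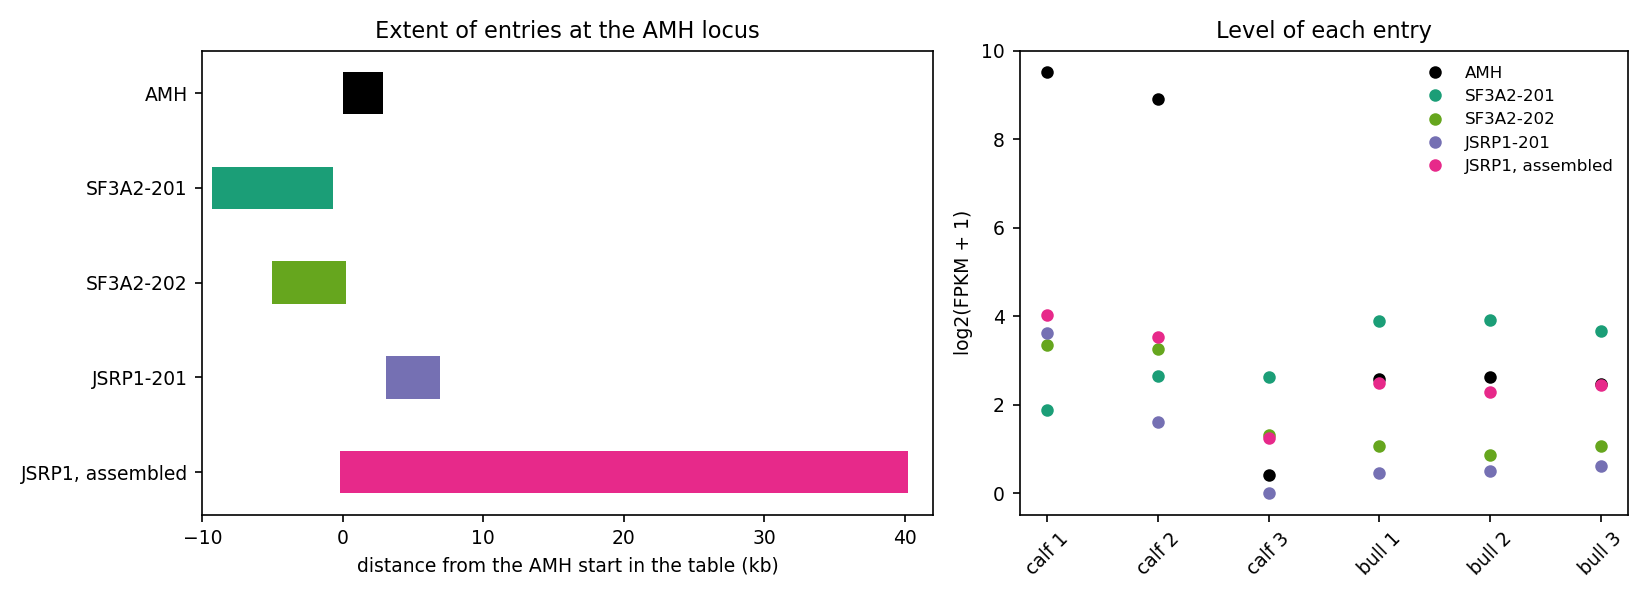
Left, extent of AMH and of 4 entries of the neighbouring genes SF3A2 and JSRP1, in kilobases from the AMH start given in the table. Right, log2(FPKM + 1) of each entry in each library: SF3A2-202, which reaches into AMH, was high in calf 1 and calf 2 with AMH, whereas SF3A2-201, which does not, was higher in bulls. JSRP1-201, which does not reach into AMH either, was higher in calf 1 and calf 2 than in bulls.

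At 3 other genes, neighbouring entries within 5000 bases were examined in the same way. Beyond WT1, the table lists Rfam entries of non-coding RNA, of which RF02209 was at 7.74 and 5.24 in calf 1 and calf 2, 0.00224 in calf 3 and 0.932 to 2.55 in bulls, and was called lower in bulls without calf 3 (−1.51, adjusted p = 0.00387, limma) but not with all libraries (−0.55, adjusted p = 0.606). Another, RF02205, overlaps WT1 in the table and was called in neither fit (−0.19 with all libraries, −0.67 without calf 3). Beside NR5A1, 2 loci assembled from the reads ran against the gene. Both passed the filter through the bulls only, the group in which they were high. XLOC_036057, 2849 bases away, was at 0.0336 and 0.0690 in calf 1 and calf 2, listed at 0 in calf 3, and at 4.68, 4.74 and 9.54 in bulls (log2 fold change 2.76 with all libraries, adjusted p = 0.000323, limma, and 2.74 without calf 3). XLOC_031243, 1557 bases away, changed by 1.84 (adjusted p = 0.00459) and by 1.82 without calf 3. Beside GATA4, XLOC_235983 was at 1.14 and 1.24 in calf 1 and calf 2 and 0.111 to 0.290 in bulls, lower in bulls like GATA4. It reached 1 FPKM in calf 1 and calf 2 only, and so could not pass the filter.

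The rest of the AMH pathway was lower in bulls in part. Of 9 genes for type I receptors and SMAD proteins, all tested, 4 were called lower and 0 higher with all libraries, and 5 lower and 0 higher without calf 3 (medians −0.98 and −1.37). Among all genes tested, 9.61% were called lower and 35.7% higher with all libraries, and 13.6% and 37.9% without calf 3. BMPR1A, a type I receptor used by AMH, was at 21.1, 21.6 and 19.8 in calf 1, calf 2 and calf 3 and 5.31 to 6.68 in bulls (log2 fold change −1.65, adjusted p = 0.000238, limma, all libraries). SMAD5, which carries the signal to the nucleus, changed by −1.34 (adjusted p = 0.000392), and the inhibitory SMAD6 and SMAD7 by −1.53 and −1.15 (adjusted p = 0.0107 and 0.00904). Without calf 3, BMPR1A was at −1.69, SMAD5 at −1.37, SMAD6 at −1.91 and SMAD7 at −1.39, and all 4 were called in both fits. SMAD4, the shared partner (named after its values were seen), had a log2 fold change of −0.23 without calf 3 (adjusted p = 0.105), with a 95% interval from −0.50 to 0.04, and of 0.01 with all libraries (adjusted p = 0.974).

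Partners and upstream regulators of the gonadal factors were likewise lower in part. Of 17 tested, 5 were called lower and 0 higher with all libraries, and 7 lower and 0 higher without calf 3 (medians −0.67 and −0.96). The shares over all genes tested were 9.61% lower and 35.7% higher with all libraries, and 13.6% and 37.9% without calf 3. NR2F2, a nuclear receptor of interstitial cells, had −1.94 (adjusted p = 0.000377), CITED2, a cofactor of WT1, −1.61 (adjusted p = 0.0228) and PTGDS, a prostaglandin D synthase that acts with SOX9, −1.60 (adjusted p = 0.0297, limma, all libraries). Without calf 3, NR2F2 was at −2.02, CITED2 at −2.12 and PTGDS at −2.05. DMRT1 (named after its values were seen), which keeps the male fate of Sertoli cells and is also a gene of spermatogonia, was not called: it was at 44.9 and 68.9 in calf 1 and calf 2, 0.0938 in calf 3 and 72.2 to 80.2 in bulls (0.47 without calf 3, adjusted p = 0.0595, and 2.37 with all libraries, adjusted p = 0.244). Of 7 genes of the ovarian pathway that opposes SOX9, 2 passed the filter and 0 were called by limma, with unadjusted p below 0.05 for both. These were CTNNB1 and BMP2 (named after their values were seen), both lower in bulls but short of 2-fold. With all libraries they were at −0.83 and −0.85 (adjusted p = 0.0177 and 0.0514, limma). Without calf 3 they were at −0.65 and −0.51 (adjusted p = 0.00391 and 0.00698, limma). FOXL2, the ovarian factor, was at or below 0.468 in every library.

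**Figure D5:**
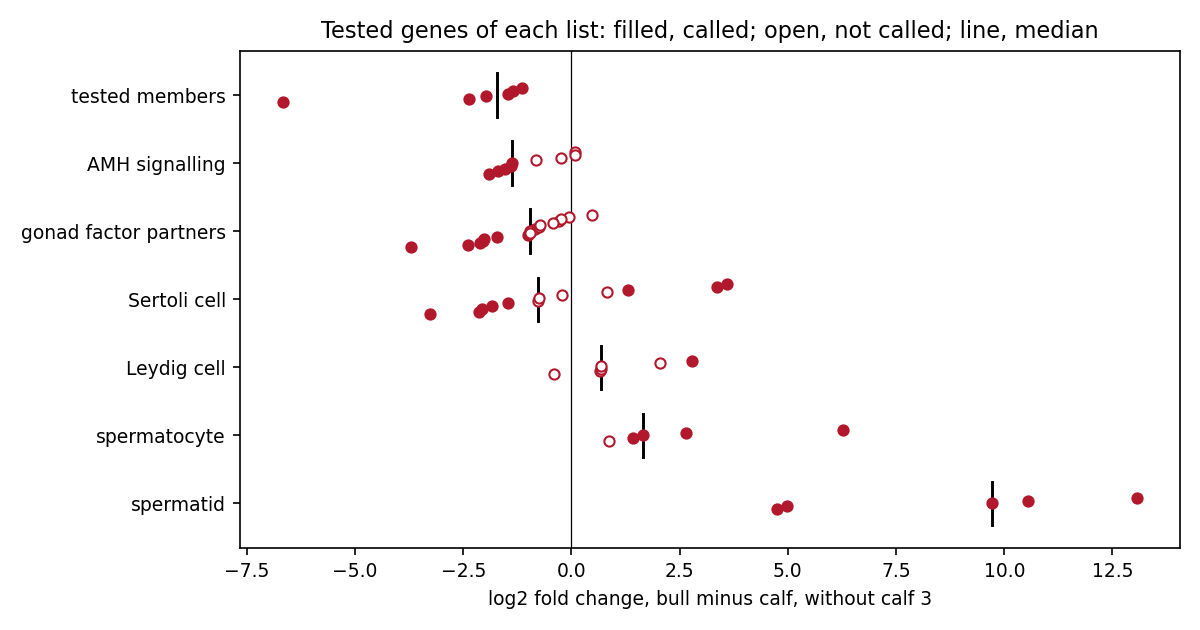
Log2 fold change of bulls against calves without calf 3 for the tested genes of each list, filled where called and open where not, with a line at the median. The 6 genes of the set and most of the AMH signalling genes lay below 0, Sertoli cell genes lay on both sides, and genes of spermatocytes and spermatids lay above 0.

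Likeness to AMH, SOX9 and NR5A1 was measured as Pearson's r of log2(FPKM + 1) over the 6 libraries, which share the calf 3 contrast and are too few for a test. The 5 genes most like AMH were TRIM25, DPT, RPS25, PIWIL4 and TCF21, with r from 0.998 to 0.999. TCF21, a factor of gonadal mesenchyme, was at 39.9 and 24.7 in calf 1 and calf 2, listed at 0 in calf 3, and at 1.26 to 1.70 in bulls. DPT, a protein of the extracellular matrix, was at 123 and 68.7, listed at 0, and at 1.62 to 2.14. Among the genes most like SOX9 were ZFPM1, RHOC, WNT9A and MPLKIP (r from 0.997 to 0.998). ZFPM1 encodes a cofactor of GATA proteins and was at 4.19, 4.93 and 2.85 in calf 1, calf 2 and calf 3 and 2.02 to 2.13 in bulls. For NR5A1 they were LAPTM4B, MGP, OBSL1, PTBP1 and APOBEC3H (r from 0.997 to 0.9998), each lowest in calf 3 and intermediate in bulls.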

How the data were processed

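The tables used list 47249 genes and 108527 transcripts, with FPKM values that the authors deposited for 6 libraries, 1 per animal and none pooled. According to the Methods, strand-specific libraries without ribosomal RNA were read, filtered, mapped with TopHat2 and assembled with StringTie 1.3.1. The paper names Cuffdiff and Ballgown for circular RNA levels, and whether these made the gene FPKM values is not stated there. The depth is unknown, since no counts came with the tables, and totals of FPKM ran from 587066 to 1098720. A UMD assembly is named there, but 99.7% of 16361 symbols, with all 8 genes described here, overlapped the same symbol's locus on ARS-UCD, so positions are printed as tabulated.

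The genes and lists were chosen with earlier results of these data known. On log2(FPKM + 1) values, bulls were compared with calves by limma 3.58.1 (R 4.3.3, empirical Bayes with trend, two-sided) over features that reached 1 FPKM in 3 or more libraries, with Benjamini-Hochberg adjustment over every feature tested. Called features had an adjusted p under 0.05 and moved 2-fold or more. Fits that left out a library kept those features. A feature that reached 1 FPKM only in calf 1 and calf 2 could not pass, whereas one that reached it only in the bulls could. The added 1 understates the change of low genes. Permuting 3 against 3 libraries exactly has 20 labelings and a smallest two-sided p of 0.1, so none was printed. CYP17A1 was left out of the Leydig cell list, since 3 entries carry its name. All 8 genes are named, with up to 4 called genes of each list with the largest change over all libraries, the defining markers FSHR, INHA, INSL3, MBP, GFAP, PRM1, HBB and ALAS2, and the 5 genes most like AMH, SOX9 and NR5A1. Of the genes this rule names, 2 are not reported here. Alternatives changed the pseudocount (0.1), filter, scaling, library weights, replicate block and libraries.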

Additional observations from a re-analysis of the deposited data

How the results depend on the processing

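Whether calf 3 was included decided the results. Without it, AMH, AMHR2, SOX9, WT1, GATA4 and NR5A1 were each called lower in bulls under all 11 settings computed. With it, 0 were called, except 1 after quantile normalization and 1 after rescaling over protein-coding symbols (SOX9 both times) and 6 with array weights, which weight libraries by their fit. Leaving out 1 library of the 6 gave 0 to 6 called, and 0 to 7 transcripts. The 6 came only without calf 3, as did the 7 transcripts. Rescaling over protein-coding symbols and the combinations of leaving out calf 3 with it, with the replicate block or with a further library were chosen after seeing the data.

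When 1 library was left out, AMH ran from −6.66 to −2.11, AMHR2 from −2.36 to −0.75 and SOX9 from −1.13 to −0.70. GATA4 turned to 0.35 with a pseudocount of 0.1, and ran from −1.98 to 0.32 when 1 library was left out and from −2.21 to −1.74 when another went with calf 3. WT1 turned to −0.55 with quantile normalization, −1.25 with array weights and −0.0143 after rescaling over protein-coding symbols, and ran from −1.36 to 1.001 when 1 library was left out. NR5A1 turned to −0.58, −1.38 and −0.0252 under these settings, and ran from −1.47 to 0.95. Without calf 3, WT1 and NR5A1 were −2.03 and −2.17 with quantile normalization, −1.46 and −1.56 with a pseudocount of 0.1, −1.36 and −1.47 with no filter, and −1.53 and −1.64 after rescaling over protein-coding symbols. Leaving out a further library gave −1.61 to −1.11 for WT1 and −1.56 to −1.40 for NR5A1.

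Counts over all genes moved with the scaling. Quantile normalization gave 3827 higher and 4538 lower (45.8% of calls higher, against 78.8%), and 4062 and 5275 without calf 3. Rescaling over genes with a symbol gave 952 lower. Without calf 3, 3196 were lower with a pseudocount of 0.1, 2726 with no filter and 2971 after rescaling over protein-coding symbols. The median of all genes was −0.26 with quantile normalization. The cause of these differences was not tested.

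Replicate numbers are shared between calves and bulls, but nothing pairs the animals: deviations of same-numbered libraries correlated at 0.0246 to 0.0341, although each library correlated best with its own number. With the replicate block, 8128 genes were called against 8215, with 0 of the 6 genes, and without calf 3 the block gave −1.30 for WT1, −1.43 for NR5A1 and 6 called. No counts per gene were given, so the reads behind each value could not be weighed.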
